A study of Homo sapiens with 6 samples.

Results

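The genes described here are 10 non-coding genes that carry small nucleolar RNAs (snoRNAs) in their introns and whose spliced transcripts are known to be degraded by nonsense-mediated decay. They are named by symbol and are GAS5, SNHG1, SNHG5, SNHG6, SNHG7, SNHG8, SNHG12, SNHG15, SNHG16 and ZFAS1. All 10 were among the 29804 gene symbols in the count table and among the 14672 genes that passed the expression filter. RNA was sequenced from 22Rv1 cells, a prostate carcinoma epithelial line, in 3 groups of 2 libraries, labelled as biological replicates. WT cells were untreated and taken at week 0, and AM cells (age matched) were left untreated for 6 weeks. 6WP cells received phleomycin, a radiomimetic drug that breaks DNA, at 1 µg/ml for 1 hour on week days for 6 weeks. Each treatment ended with a wash in PBS and fresh medium. All 3 groups are the same line, and the labels name no further genetic change. 6WP and WT cells differ in both drug and time in culture, which cannot be told apart in that comparison. AM cells were grown in parallel with 6WP cells, and the study's methods describe no such wash or medium change for them. AM and 6WP cells thus differ in the drug and possibly in this handling, which cannot be told apart either.

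A snoRNA host gene is transcribed and spliced, the excised introns are trimmed to snoRNAs that guide the chemical modification of ribosomal and spliceosomal RNA, and the joined exons leave the nucleus as a by-product. Ribosomes on these exons meet a stop codon upstream of an exon junction, which makes the spliced RNA a substrate of nonsense-mediated decay, so that its level is known to depend on translation as well as on transcription. Many hosts share a further feature with the messages of ribosomal proteins, a run of pyrimidines at the transcription start called a 5′ terminal oligopyrimidine (5′ TOP) tract.

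Both features were looked up in the annotation because they define how these RNAs are made and removed. Of 352 spliced GENCODE release 44 transcripts of the 10 genes, 326 (92.6%) had an exon junction more than 50 bases after the stop codon of the reading frame that begins at the first ATG. The share was 79.0% among 52731 spliced transcripts of other long non-coding RNA genes. GAS5, SNHG1 and SNHG5 supplied 91, 79 and 87 of the 352 transcripts and weigh most in the pooled share. By gene, GAS5, SNHG1, SNHG5, SNHG12 and SNHG16 had 94.1% or more. SNHG7 (80.0%) was near the share of the other genes. SNHG8 and SNHG15 (78.6% each), SNHG6 (75.0%) and ZFAS1 (71.4%) were below it. These first reading frames had a median of 35 codons in transcripts of the 10 genes, with a range from 1 to 117. In transcripts of the other genes the median was 17 codons and the range from 0 to 1265, so short frames are not particular to the hosts. Transcripts of 1 gene share exons, so these shares describe the annotation and were not tested.

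The starts of 8 genes were found in the RefSeq promoter table (GRCh38), which has no entry for SNHG6 or SNHG15. The window searched ran from 40 bases before the annotated start to 20 bases after it, on the strand of the gene only. A run of at least 5 pyrimidines (C or T) within 5 bases of the start was present in 7 of the 8 windows (87.5%), against 34.1% of 35108 windows of other genes. The runs of SNHG5, SNHG8, SNHG12 and ZFAS1 covered the annotated start. That of SNHG7 began at -14 and ended before the start, and those of SNHG1 and SNHG16 began after it, at positions 5 and 4. A run counted here is therefore not always a 5′ TOP tract at the annotated start. The letters TATAAA or TATATA, counted once a window and upstream of the start, were in 4 of the 8 (50.0%), against 3.11% of the other windows. The windows of SNHG5, SNHG7, SNHG12, ZFAS1 and SNHG8 are shown, and the capitals mark the pyrimidine run and, where present, the TATA letters. They were picked by the levels of these genes, so the display cannot show a link between letters and level. The windows of SNHG1 and SNHG16, which are not shown, had a run and no TATA letters.
SNHG5, chr6:85678714-85678773, minus strand: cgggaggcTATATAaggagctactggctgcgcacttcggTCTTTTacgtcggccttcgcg
SNHG7, chr9:136728165-136728224, minus strand: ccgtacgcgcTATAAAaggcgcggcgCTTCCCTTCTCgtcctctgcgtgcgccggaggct
SNHG12, chr1:28581854-28581913, minus strand: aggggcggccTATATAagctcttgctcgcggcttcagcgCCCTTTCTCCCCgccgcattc
ZFAS1, chr20:49278602-49278661, plus strand: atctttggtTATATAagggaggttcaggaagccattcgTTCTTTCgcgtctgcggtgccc
SNHG8, chr4:118278722-118278781, plus strand: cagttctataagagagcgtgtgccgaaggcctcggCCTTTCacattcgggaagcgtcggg
The RefSeq start of GAS5 had neither motif. The start of the GENCODE transcript ENST00000702964.1 lies farther downstream, and its window, read from the hg38 genome, held both. A second start was searched for GAS5 alone, and not for the other hosts or the windows of other genes. This window is therefore outside the shares above and cannot be set against them.
GAS5, chr1:173867970-173868029, minus strand: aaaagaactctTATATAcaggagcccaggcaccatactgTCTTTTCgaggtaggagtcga
These letters describe the windows and were not linked to a factor or to a change in level.

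Levels are given in CPM (read counts relative to TMM normalized library totals) and are compared between libraries and not between genes. Library totals ran from 21222201 to 35311945 counts, and 3 counts, taken as the floor, equalled between 0.0883 and 0.138 CPM, which covers counting error only. The 10 genes together held between 0.0769% and 0.233% of a library's counts, the lowest share in AM replicate 1 and the highest in 6WP replicate 2. The 6WP libraries stood farther apart than the others: a gene differed between replicates by a median of 0.28 on the log2 scale in 6WP cells, 0.12 in WT cells and 0.13 in AM cells. Of the 10 genes, 8 were higher in 6WP replicate 2 than in 6WP replicate 1. The 8 epithelial and prostate markers summed to between 1760 and 2762 CPM in every library. The 4 leukocyte markers summed to at most 1.12 CPM with PTPRC and CD3E at 0 throughout, the 3 endothelial markers to at most 0.138 CPM, and the 3 fibroblast markers to at most 4.16 CPM. In bulk RNA, fewer cells of a type and less RNA per cell cannot be told apart.

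Most of the host genes were lowest in AM cells and highest in 6WP cells. Against AM cells, 8 of the 10 genes rose in 6WP cells and none fell, where 11.7% of all tested genes were called higher and 9.68% lower. Against WT cells, 2 of the 10 rose in 6WP cells and none fell, beside 1.63% of all genes called higher and 1.37% lower. In AM cells against WT, 5 of the 10 fell and none rose, beside 9.93% of all genes called lower and 7.74% higher. Calls are adjusted p-values under 0.05 from edgeR's quasi-likelihood test with Benjamini-Hochberg adjustment over all 14672 genes. At an unadjusted p under 0.05 there was likewise no gene of the 10 in the opposite direction in any comparison, and DESeq2 called the same numbers, 2, 8 and 5. The median log2 fold change of the 10 genes was 1.12 for 6WP against AM, 0.42 for 6WP against WT and -0.47 for AM against WT, beside medians over all genes of 0.05, 0.01 and -0.0023. The comparisons share libraries, so the AM libraries enter both the fall against WT and the rise in 6WP.

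**Figure D1:**
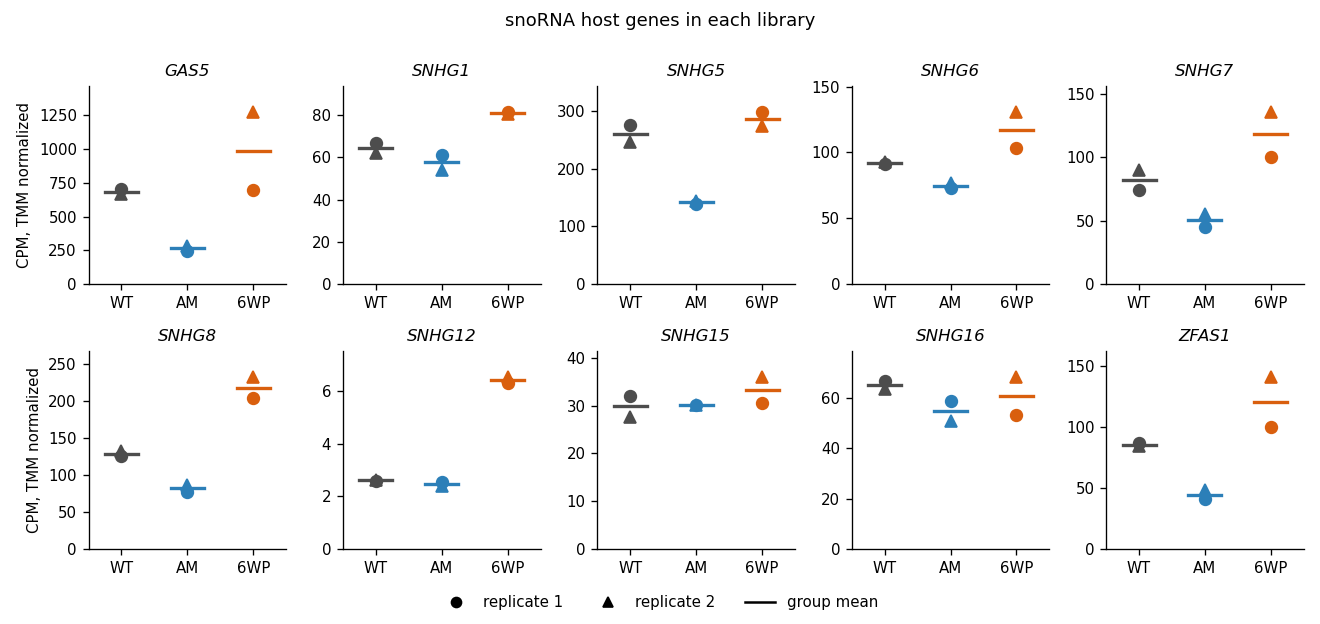
TMM normalized CPM of each of the 10 host genes (vertical axes start at 0 and differ between genes) in WT, AM and 6WP cells, with circles for replicate 1, triangles for replicate 2 and lines for group means. For GAS5 the AM libraries sit at 245 and 285 CPM, below all WT and 6WP libraries, and the 6WP libraries are far apart at 693 and 1271 CPM.

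GAS5 (growth arrest specific 5, ENSG00000234741.10, chr1:173858559-173868882, minus strand) accumulates in cells whose growth has stopped and hosts box C/D snoRNAs. Its level was 703 and 666 CPM in the WT libraries, 245 and 285 CPM in the AM libraries, and 693 and 1271 CPM in the 6WP libraries. The AM libraries lay below all others, while the WT values fell within or just beside the range of the 6WP values. GAS5 was 2.58-fold lower in AM cells than in WT cells (log2 fold change -1.37 ± 0.25 SE, adjusted p = 0.0120). It was 3.71-fold higher in 6WP cells than in AM cells (1.89 ± 0.25 SE, adjusted p = 0.00444), the largest rise among the 10 genes in that comparison. Against WT, 6WP cells gave a log2 fold change of 0.52 ± 0.25 (adjusted p = 0.258), and replicate 2 decided it: the value was -0.0074 without 6WP replicate 2 and 0.88 without 6WP replicate 1. Each of these fits keeps a lone 6WP library, so only the effect size is given.

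ZFAS1 (ENSG00000177410.13, chr20:49278178-49299600, plus strand) hosts SNORD12 snoRNAs and starts head to head with the protein-coding gene ZNFX1. It was measured at 86.4 and 84.5 CPM in WT cells, 40.8 and 48.7 CPM in AM cells, and 100 and 141 CPM in 6WP cells. The 3 groups did not overlap, with AM lowest and 6WP highest. ZFAS1 fell 1.91-fold from WT to AM (adjusted p = 0.0124) and was 2.69-fold higher in 6WP than in AM cells (log2 fold change 1.43 ± 0.17 SE, adjusted p = 0.00342). For 6WP against WT the log2 fold change was 0.50 ± 0.17 (adjusted p = 0.143), past the threshold only before adjustment. The strand setting of the counting is not given in the sources used here, so reads of hosts and of genes whose exons overlap them on the opposite strand may not have been told apart, as for SNHG6 with MCMDC2, SNHG7 with DIPK1B, SNHG8 with PRSS12 and SNHG12 with TRNAU1AP.

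SNHG5 (ENSG00000203875.13, chr6:85650491-85678932, minus strand) hosts SNORD50A and SNORD50B. Its libraries held 275 and 246 CPM in WT, 139 and 144 CPM in AM, and 298 and 274 CPM in 6WP. Both AM libraries were far below the rest, and the WT and 6WP values overlapped. The fall in AM against WT was 1.84-fold (adjusted p = 0.00430) and the rise in 6WP against AM 2.02-fold (log2 fold change 1.01 ± 0.11 SE, adjusted p = 0.00235). Against WT, 6WP cells gave 0.14 on the log2 scale, with a 95% interval from -0.12 to 0.39 (adjusted p = 0.501).

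SNHG7 (ENSG00000233016.9, chr9:136721366-136728184, minus strand) hosts SNORA17A and SNORA17B, box H/ACA snoRNAs. It was at 74.6 and 89.8 CPM in WT, 45.4 and 55.6 CPM in AM, and 100 and 136 CPM in 6WP cells. The groups did not overlap. SNHG7 fell 1.62-fold in AM against WT (adjusted p = 0.0338) and rose 2.33-fold in 6WP against AM (log2 fold change 1.22 ± 0.18 SE, adjusted p = 0.00569), while 6WP against WT gave 0.52 ± 0.18 (adjusted p = 0.141).

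SNHG8 (ENSG00000269893.10, chr4:118278703-118285316, plus strand) hosts SNORA24. The values were 125 and 132 CPM in WT, 77.6 and 86.4 CPM in AM, and 203 and 232 CPM in 6WP cells, so the 3 groups were well separated and replicates close. It was the single gene of the 10 called in all 3 comparisons: 1.57-fold lower in AM than in WT (adjusted p = 0.0117), 2.65-fold higher in 6WP than in AM (log2 fold change 1.41 ± 0.12 SE, adjusted p = 0.00174) and 1.69-fold higher in 6WP than in WT (0.76 ± 0.12 SE, adjusted p = 0.0192). The call against AM held in all 15 alternatives tried. The call against WT held in 10 of them and was lost without either WT or either AM library and in the fit to the 2 groups alone, where the adjusted p reached at most 0.347.

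SNHG12 (ENSG00000197989.15, chr1:28578538-28583132, minus strand) hosts SNORD99, SNORA61, SNORA44 and SNORA16A. It had few counts, between 57 and 185 in a library, which equalled 2.59 and 2.62 CPM in WT, 2.54 and 2.38 CPM in AM, and 6.29 and 6.52 CPM in 6WP cells. WT and AM cells were at a like level, and both 6WP libraries were far above them. SNHG12 was 2.46-fold higher in 6WP than in WT cells (log2 fold change 1.30 ± 0.21 SE, adjusted p = 0.0219), the largest rise of the 10 genes in that comparison, and 2.60-fold higher than in AM cells (1.38 ± 0.20 SE, adjusted p = 0.00569). AM against WT gave -0.08, with a 95% interval from -0.58 to 0.41 (adjusted p = 0.809). The call against WT held in 10 of 15 alternatives and was lost without either WT or either AM library and in the fit to 2 groups, up to an adjusted p of 0.315.

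SNHG1 (ENSG00000255717.9, chr11:62851978-62855953, minus strand) was among the first hosts found to have no conserved protein, and its introns hold the SNORD25 to SNORD31 series and SNORD22. It was at 66.8 and 61.9 CPM in WT, 61.0 and 54.1 CPM in AM, and 81.4 and 80.2 CPM in 6WP cells. Both 6WP libraries were above all others. The rise in 6WP against AM was 1.40-fold (log2 fold change 0.49 ± 0.11 SE, adjusted p = 0.0217), a call that held in 10 of 15 alternatives and was lost in the fit to 2 groups and without either WT or either AM library. Against WT, 0.33 ± 0.11 did not pass adjustment (adjusted p = 0.146). AM against WT gave -0.16 ± 0.11 (adjusted p = 0.334).

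SNHG6 (ENSG00000245910.9, chr8:66920561-66926398, minus strand) hosts SNORD87. It was at 91.5 and 92.5 CPM in WT, 72.7 and 77.2 CPM in AM, and 103 and 131 CPM in 6WP cells, with no overlap between the groups. It rose 1.56-fold in 6WP against AM (log2 fold change 0.64 ± 0.13 SE, adjusted p = 0.0152), a call lost in the same 5 of 15 alternatives as that of SNHG1. Against WT the values were 0.35 ± 0.13 in 6WP cells (adjusted p = 0.178) and -0.30 ± 0.13 in AM cells (adjusted p = 0.152).

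SNHG15 and SNHG16 were not called in any comparison. SNHG15 (ENSG00000232956.10, chr7:44983019-44986961, minus strand), host of SNORA9, was at 32.0 and 27.7 CPM in WT, 30.1 and 30.1 CPM in AM, and 30.5 and 36.0 CPM in 6WP cells. SNHG16 (ENSG00000163597.17, chr17:76557727-76670985, plus strand), host of the SNORD1 snoRNAs, was at 66.8 and 63.5 CPM in WT, 58.8 and 50.7 CPM in AM, and 53.3 and 68.3 CPM in 6WP cells. For 6WP against AM the 95% interval of the log2 fold change ran from -0.17 to 0.46 for SNHG15 and from -0.18 to 0.49 for SNHG16, while SNHG1, the smallest of the 8 rises, was estimated at 0.49. The difference between these 2 genes and the other 8 was not itself tested.

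**Figure D2:**
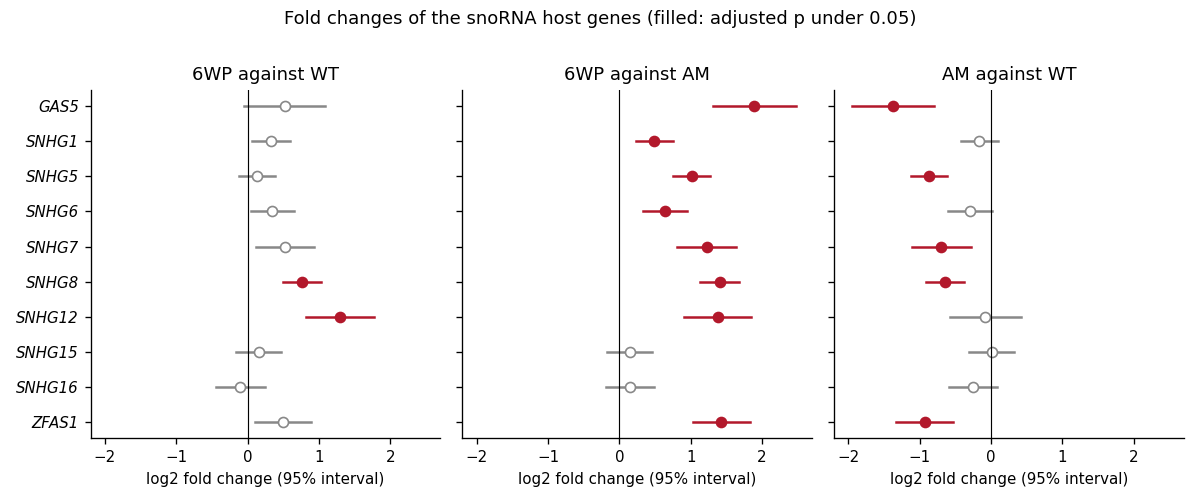
Log2 fold change of each host gene with its 95% interval from the edgeR model in 3 comparisons, with filled points for adjusted p under 0.05. In 6WP against AM 8 points are filled and to the right of 0, in 6WP against WT only SNHG8 and SNHG12, and in AM against WT 5 are filled and to the left.

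The number of calls depended on single libraries. For 6WP against AM, the 8 calls became 1 (SNHG8) without AM replicate 1 and 2 (SNHG8 and ZFAS1) without AM replicate 2, where the calls over all genes went from 3131 to 179 and 116. For AM against WT, the 5 calls became 0 without any 1 of the WT or AM libraries, where calls over all genes went from 2593 to between 67 and 137. For 6WP against WT, the 2 calls became 0 without either WT or either AM library, and 6 without 6WP replicate 1 (GAS5, SNHG6, SNHG7, SNHG8, SNHG12 and ZFAS1). Without 6WP replicate 2 they became 3, with SNHG1 added. The sign stayed the same in all of these fits for each of the 8 genes called in 6WP against AM, the 2 in 6WP against WT and the 5 in AM against WT. For each of these called values the libraries of the groups compared did not overlap. Leaving 1 library out could therefore hardly turn the sign, and its stability is no separate check. The smallest two-sided p that exact permutation of 2 and 2 libraries allows is 0.333, so every call comes from the model's shared estimate of the spread.

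Over the 6 libraries, the centred log2 CPM of GAS5, SNHG6, SNHG7, SNHG8 and ZFAS1 followed the mean of the other 9 genes closely, with Pearson's r between 0.955 for GAS5 and 0.985 for ZFAS1. SNHG1 and SNHG5 came next at 0.886 and 0.878, then SNHG12 at 0.791, and SNHG15 and SNHG16 were loosest at 0.581 and 0.477. GAS5 and ZFAS1 were the closest pair (r = 0.992), and both stood higher in 6WP replicate 2 than in 6WP replicate 1, by 1.83-fold and 1.40-fold. SNHG12 and SNHG16 were the least alike (r = 0.115). These values describe 6 libraries that fall into 3 groups and share depth and normalization. The genes outside the 10 most like their mean profile were EIF2D (r = 0.999), a non-canonical translation initiation factor, COL26A1 (0.999), ZNF501 (0.998), PTPN9 (0.998) and POU6F1 (0.998). EIF2D was at 86.1 and 84.9 CPM in WT, 63.9 and 65.0 CPM in AM, and 103 and 118 CPM in 6WP cells.

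The hosts' introns hold 33 snoRNA rows of the table, of which 21 passed the expression filter. None of these was called higher in any comparison, and 1 of 21 was lower in 6WP against AM. The intervals of rows with few counts were wide: in SNHG12, SNORA61 gave 0.29 for 6WP against AM (95% interval from -0.84 to 1.43) and SNORA44 0.63 (from -1.15 to 2.40), and both intervals held the 1.38 of their host. For 6WP against WT edgeR's test called 0 of 21, with 5 lower and none higher at an unadjusted p under 0.05 and 1 lower by DESeq2. AM against WT gave 0 of 21 by edgeR, by DESeq2 and at an unadjusted p under 0.05. The sequences of 3 are shown, from the introns of GAS5 and SNHG1, whose snoRNA rows had the most counts, read from the hg38 genome at RefSeq positions, with capitals for box C (UGAUGA) and box D (CUGA), the short motifs bound by the core proteins of these particles.
SNORD44 in GAS5, chr1:173865968-173866028, minus strand: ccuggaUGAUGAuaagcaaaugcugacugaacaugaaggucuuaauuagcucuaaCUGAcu
SNORD27 in SNHG1, chr11:62855012-62855083, minus strand: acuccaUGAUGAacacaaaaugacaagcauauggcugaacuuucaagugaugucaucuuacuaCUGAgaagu
SNORD29 in SNHG1, chr11:62853904-62853968, minus strand: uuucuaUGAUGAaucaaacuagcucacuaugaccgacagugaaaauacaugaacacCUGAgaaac
These rows hold few counts. The libraries were read in single reads about as long as a snoRNA, so a read in such a row may come from the snoRNA or from unspliced host RNA, which cannot be told apart here. Per the study's methods the RNA was cleaned up with the RNeasy Plus Micro Kit, and how much RNA of snoRNA length was kept is not given. The counts in these rows, and their ratios to the hosts, therefore do not measure snoRNA output.

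In GAS5 the 10 listed snoRNA rows summed to 262 and 267 counts in WT, 294 and 311 in AM, and 190 and 330 in 6WP cells. This equalled 11.7 and 12.3 CPM, 12.7 and 9.16 CPM, and 6.87 and 11.6 CPM. Both 6WP sums lay below both WT sums, the upper one narrowly, while the AM sums overlapped both other groups although GAS5 itself was lowest in both AM libraries. Per 1000 counts of GAS5 there were 16.6 and 18.4 snoRNA counts in WT, 51.7 and 32.2 in AM, and 9.91 and 9.15 in 6WP cells. The single rows SNORD81, SNORD47, SNORD80, SNORD79, SNORD78, SNORD44, SNORD77 and SNORD76 were tested, and none was called in any comparison. SNORD44 had 39 and 50 counts in WT, 39 and 54 in AM, and 29 and 48 in 6WP cells.

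In SNHG1 the 8 listed snoRNA rows summed to 275 and 232 counts in WT, 276 and 285 in AM, and 175 and 178 in 6WP cells. In CPM these were 12.3 and 10.7, 11.9 and 8.39, and 6.33 and 6.27, so both 6WP libraries were lowest while the host was highest there. Per 1000 counts of SNHG1 there were 184 and 172 snoRNA counts in WT, 195 and 155 in AM, and 77.8 and 78.2 in 6WP cells. SNORD27 had 23 and 21 counts in WT, 22 and 30 in AM, and 8 and 9 in 6WP cells. It was the 1 row called, 2.98-fold lower in 6WP than in AM cells (log2 fold change -1.57 ± 0.37 SE, adjusted p = 0.0224), and the call was lost in the fit to 2 groups and without any 1 of the WT or AM libraries, while the row was not tested where 10 counts in every library were asked. Against WT its log2 fold change was -1.70 ± 0.37 (adjusted p = 0.0542). SNORD28, SNORD29 and SNORD30 gave -1.69, -1.25 and -1.03 against WT, with adjusted p-values of 0.0665, 0.0871 and 0.162, and the other 4 rows lay between -1.10 and -0.19.

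The rest of the snoRNA rows also stood lower in 6WP than in WT libraries. The 294 rows outside these hosts summed to 60.9 and 73.6 CPM in WT, 60.0 and 53.3 CPM in AM, and 49.3 and 55.9 CPM in 6WP cells. Of the 62 tested among them, edgeR called 0 in 6WP against WT (9 lower and none higher at an unadjusted p under 0.05, 0 by DESeq2), and their median log2 fold change was -0.45, beside -0.49 for the 21 rows inside the hosts. What part of the low SNHG1 rows goes with this shift was not tested. The remaining hosts had sums too small for a comparison: SNORD87 in SNHG6 had between 17 and 31 counts a library, SNORA24 in SNHG8 between 12 and 28, SNORA9 in SNHG15 between 25 and 46, and the rows in SNHG12 together between 18 and 37. SNORD50A and SNORD50B together had between 5 and 14 counts, the SNORD1 rows between 4 and 8 and the SNORD12 rows between 8 and 16, none of which passed the filter. Related copies in a family may share reads.

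**Figure D3:**
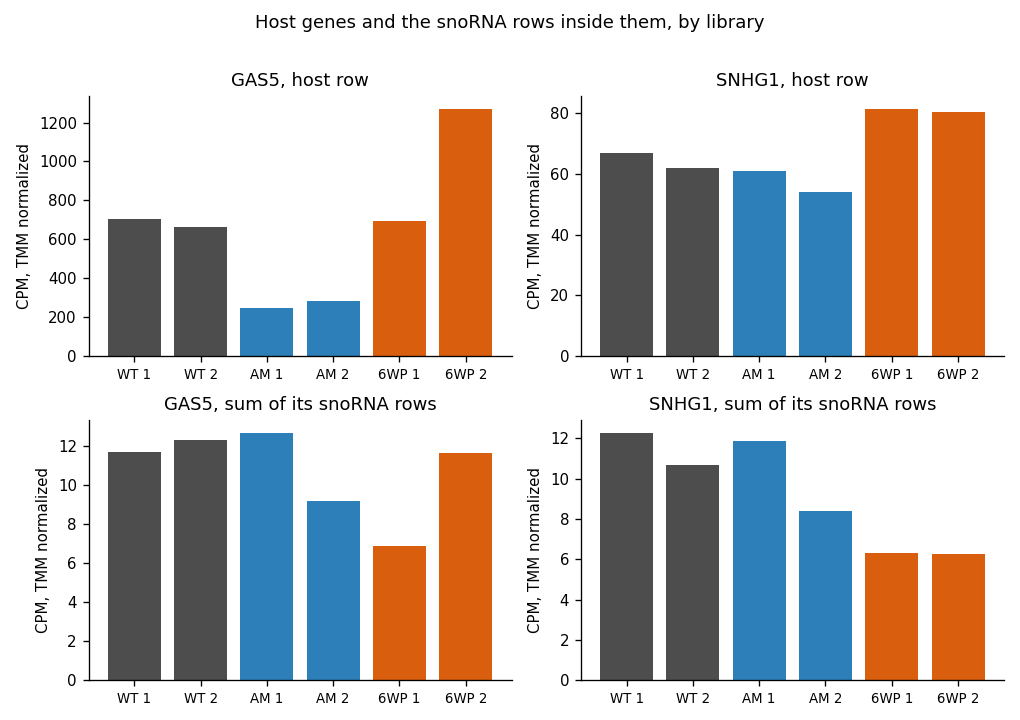
Bars of TMM normalized CPM in each library for GAS5 and SNHG1 (top) and for the sum of the snoRNA rows inside each (bottom). GAS5 falls to 245 and 285 CPM in AM cells while its snoRNA sum stays at 12.7 and 9.16 CPM, and the SNHG1 snoRNA sum is lowest in 6WP cells, at 6.33 and 6.27 CPM.

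Genes that start next to a host on the opposite strand were not called in any comparison. ZBTB37 starts 391 bases from GAS5 and was at 7.05 and 7.67 CPM in WT, 5.86 and 3.53 CPM in AM, and 3.76 and 5.92 CPM in 6WP cells. ZNFX1, an RNA helicase gene, starts 585 bases from ZFAS1 and was at 25.4 and 26.0 CPM in WT, 21.1 and 15.6 CPM in AM, and 19.2 and 19.3 CPM in 6WP cells. Neither passed adjustment in edgeR or in DESeq2, and ZNFX1 alone passed an unadjusted p under 0.05, as lower against WT in AM and in 6WP cells. For 6WP against AM, where their hosts rose, the log2 fold change was 0.06 for ZBTB37 (95% interval from -0.64 to 0.76) and 0.07 for ZNFX1 (from -0.30 to 0.45). Against WT, both were lower in AM and in 6WP libraries, with ZNFX1 at -0.49 in AM (adjusted p = 0.0734) and -0.42 in 6WP cells (adjusted p = 0.185).

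Related gene lists were read from the same fit. Their calls rested on all libraries: over all lists, 55 genes called in 6WP against AM became 0 without either AM library and 22 or 23 without either WT library, and 30 called in AM against WT became 0 without any 1 of the WT or AM libraries. Without either 6WP library the calls in AM against WT rose. Calls over all genes fell and rose in the same fits.

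Of 20 other non-coding hosts, 12 were tested, and 5 rose and none fell in 6WP against AM, with a median log2 fold change of 0.29. EPB41L4A-AS1 rose 3.67-fold (adjusted p = 0.00711), from 12.7 and 15.4 CPM in AM to 34.2 and 69.1 CPM in 6WP cells. C6orf48 (SNHG32), SNHG19 and FAM211A-AS1 (SNHG29) rose 2.55-fold, 2.15-fold and 1.86-fold. In AM against WT 2 of 12 fell, C6orf48 by 1.71-fold (adjusted p = 0.0193) and FAM211A-AS1 by 1.67-fold (adjusted p = 0.0368). Against WT, edgeR called 0 of 12 in 6WP cells, with 5 higher and none lower at an unadjusted p under 0.05 and 3 higher by DESeq2.

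Among 41 tested hosts that encode proteins, 20 rose and 3 fell in 6WP against AM, and 11 fell and 3 rose in AM against WT. The latter split depended on the scaling, with 17 lower and none higher under upper quartile normalization and 17 lower and 1 higher under library size alone. The 22 of these that encode ribosomal proteins included 16 that rose and none that fell in 6WP against AM (median log2 fold change 0.72), and 9 that fell and none that rose in AM against WT (median -0.51). RPL13A, RPL5 and RPL4, of the large ribosomal subunit, rose 2.12-fold, 1.96-fold and 1.91-fold in 6WP against AM, and EEF2, the translocation factor of the ribosome, rose 2.13-fold. In the opposite direction were TCP1 and CCT6A, subunits of the cytosolic chaperonin, at 1.72-fold and 1.55-fold lower, and RCC1, the nucleotide exchange factor of Ran, at 1.45-fold lower, of which the RCC1 call held in 8 of 15 alternatives. Against WT, 1 of the 41 rose in 6WP cells, the mitochondrial chaperone HSPA9 at 1.49-fold (adjusted p = 0.0384). EdgeR and DESeq2 each called 0 of the 22 ribosomal protein hosts there, with 2 higher at an unadjusted p under 0.05. That count depended on single 6WP libraries, as did the calls over all genes. The median log2 fold change of the 22 in 6WP against WT was 0.24 with all libraries. It was 0.38 without 6WP replicate 1 and -0.0076 without 6WP replicate 2.

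Messages with a known 5′ TOP tract outside the ribosomal proteins were also lowest in AM cells. Of 20 tested, 14 rose and none fell in 6WP against AM (median log2 fold change 0.69), and 7 fell and none rose in AM against WT (median -0.51). EIF3L and EIF3E, subunits of initiation factor eIF3, rose 1.94-fold and 1.80-fold in 6WP against AM, and GNB2L1 (RACK1), a protein of the small ribosomal subunit, rose 1.86-fold. EIF3L, EEF2, EIF3F and EIF4B fell in AM against WT, by 1.91-fold, 1.84-fold, 1.60-fold and 1.59-fold. Neither edgeR nor DESeq2 called any of the 20 in 6WP against WT, with 1 higher at an unadjusted p under 0.05. The median log2 fold change of the 20 in 6WP against WT was 0.18 with all libraries. It was 0.36 without 6WP replicate 1 and -0.15 without 6WP replicate 2, so it depended on single 6WP libraries. Whether these lists differ from the 10 host genes was not tested. EEF1B2, EEF2, TPT1 and GNB2L1 stand both in this list and in that of the hosts that encode proteins.

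**Figure D4:**
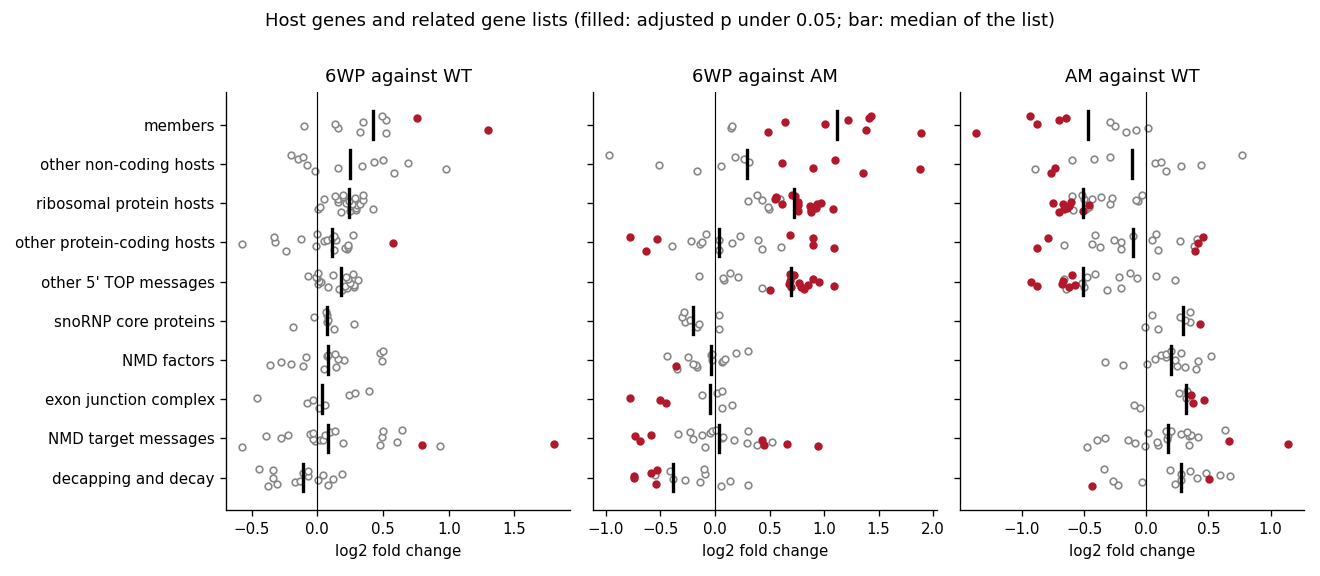
Log2 fold change of each tested gene in the 10 host genes (members) and 9 related sets, in 3 comparisons, with filled points for adjusted p under 0.05 and a bar for the median of each set. The host genes, ribosomal protein hosts and other 5′ TOP messages have medians of 1.12, 0.72 and 0.69 in 6WP against AM, and NMD factors have a median near 0.

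Genes of the decay pathway itself were read beside the 9.68% of all tested genes called lower and 11.7% called higher in 6WP against AM. Of 15 factors of nonsense-mediated decay, among them the helicase UPF1 and the kinase SMG1, 1 was called in 6WP against AM, the termination factor GSPT1, at 1.28-fold lower (adjusted p = 0.0467), a call that held in 5 of 15 alternatives and was lost, among others, with each other filter, with the replicate block and without any 1 of the WT or AM libraries. EdgeR called 0 of 15 in 6WP against WT (3 higher and 1 lower at an unadjusted p under 0.05, 1 higher by DESeq2) and 0 of 15 in AM against WT (5 higher and none lower unadjusted, 2 higher by DESeq2). The exon junction complex, which marks the junctions that decay reads, had 3 of 8 genes lower in 6WP against AM, MAGOHB by 1.72-fold, MAGOH by 1.41-fold and EIF4A3 by 1.37-fold. MAGOH, EIF4A3 and RBM8A were higher in AM against WT, by 1.38-fold, 1.30-fold and 1.28-fold. This set of calls became 0 of 8 with upper quartile normalization, with library size alone or with the replicate block. Of 15 genes of decapping and 5′ to 3′ decay, 5 were lower and none higher in 6WP against AM, with LSM3 at 1.67-fold (adjusted p = 0.0463, called in 7 of 15 alternatives), LSM2 at 1.67-fold (adjusted p = 0.0268), LSM6 at 1.51-fold and the decapping enzyme DCP2 at 1.46-fold lower. In AM against WT LSM1 was 1.41-fold higher, a call lost with upper quartile normalization and library size alone, and DCP1A was 1.35-fold lower, a call lost with the replicate block. The core proteins of snoRNPs had 0 of 8 called in 6WP against AM (none higher and 2 lower at an unadjusted p under 0.05, 0 by DESeq2). GAR1 was 1.35-fold higher in AM against WT, a call lost under upper quartile normalization, under library size alone and with the replicate block.

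Messages known as targets of nonsense-mediated decay did not move in 1 direction. Of 22 tested, 4 rose and 3 fell in 6WP against AM, with a median log2 fold change of 0.03. The stress transcription factors ATF3, DDIT3 and ATF4 rose 1.92-fold, 1.58-fold and 1.37-fold, and PTBP2, a splicing repressor, rose 1.35-fold, a call that held in 6 of 15 alternatives and not by DESeq2. The splicing factors SRSF2 and SRSF3 and the RNA-binding protein gene HNRNPDL, whose messages carry exons that trigger decay, were 1.67-fold, 1.50-fold and 1.61-fold lower. Against WT, DDIT3 rose 3.49-fold (adjusted p = 0.00528) and ATF4 rose 1.74-fold (adjusted p = 0.0155) in 6WP cells. DDIT3 was also higher in AM than in WT cells, by 2.21-fold (adjusted p = 0.00875), with HNRNPDL 1.59-fold higher. These were the only calls among the 22 in AM against WT, beside 7.74% of all genes called higher and 9.93% lower. Of the 10 host genes, 5 were called lower there. Whether the targets differ from the host genes was not tested. These counts are of whole genes and do not separate isoforms with and without a decay-triggering exon.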

How the data were processed

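RNA-seq libraries from WT, AM and 6WP 22Rv1 cells (2 each) were used. Per the study's methods and the submitters' processing notes, reads (stranded kit, single end) were aligned to hg38 with STAR 2.5.3a, with StringTie 1.3.3 and featureCounts 1.5.3 also named. The strand setting and annotation are not given in the sources used here. The table the authors deposited holds unnormalized read counts, 1 row a gene symbol.

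TMM factors and a quasi-likelihood model without covariates were computed from all 6 libraries with edgeR 4.0.16 in R 4.3.3, after filterByExpr with the 3 groups left 14672 genes. All tests were two-sided and p-values were adjusted by the Benjamini-Hochberg method over all tested genes. DESeq2 1.42.0 was an alternative. Other alternatives were normalizations, filters, the likelihood ratio test, fits to 2 groups, a replicate block and each library left out. P-values measure only the spread between these samples. The script was tested on simulated data.

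The 10 genes and the lists were chosen with earlier results of these data known. Named genes are the 10, in each list up to 4 called genes a direction with the largest change, head-to-head neighbours within 1000 bases, snoRNAs with at least 10 counts and the 5 most alike profiles. Of 33 snoRNA rows, 21 were tested. SNORA17A, SNORA17B and SNORA103 were not analysed here. No outlier test was possible with 2 libraries a group.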

Additional observations from a re-analysis of the deposited data

How the results depend on the processing

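With 2 libraries a group, counts of calls depended on which libraries entered, and leaving 1 out assumes that the lone library varies like the other groups. The causes were not tested. Of 450 recomputed log2 fold changes of the 10 host genes, 379 kept their direction and side of the threshold, 49 lost and 12 gained a call, and 10 turned sign, all of uncalled values. For 81 other named values, 909 of 1213 were kept, 262 lost and 39 gained a call, and 3 turned sign. Host genes called numbered 2 in 6WP against WT, 8 in 6WP against AM and 5 in AM against WT. These counts were unchanged, with the same genes, under the other normalizations, both filters, DESeq2 and the likelihood ratio test. The fit to 2 groups gave 0 for 6WP against WT, 6 for 6WP against AM (SNHG1 and SNHG6 lost) and 7 for AM against WT, and leaving out libraries gave 0 to 6, 1 to 9 and 0 to 7. With the replicate block the host genes called were the same 2, 8 and 5, and list genes 2, 56 and 32 in place of 3, 55 and 30. Same-numbered libraries deviated together little (r = 0.04 for WT and AM, 0.09 for WT and 6WP, -0.02 for AM and 6WP), so they share only a number.

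List genes called in 6WP against WT numbered 8 with no filter, 11 with DESeq2, 12 with the likelihood ratio test, 1 in the fit to 2 groups and 0 to 59 with a library left out. For 6WP against AM they were 22 in the fit to 2 groups and 0 to 86 with a library left out. For AM against WT they were 47 with no filter and with the likelihood ratio test, 50 with DESeq2, 91 in the fit to 2 groups and 0 to 89 with a library left out. The split of the 30 calls was 10 higher and 20 lower, but 2 and 30 with upper quartile normalization and 3 and 29 with library size only. Upper quartile normalization moved the median of all genes to 0.14 in 6WP against AM and -0.09 in AM against WT.

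Recomputations for snoRNA rows, neighbours and single genes of the lists were chosen after seeing the data. snoRNA rows called in 6WP against WT were 2 with no filter, 1 with DESeq2, 3 with the likelihood ratio test and 0 to 3 with a library left out. In 6WP against AM they were 0 with at least 10 counts in every library, 3 with the likelihood ratio test, 0 in the fit to 2 groups and 0 to 2 with a library left out. Neighbours called were 0 to 2 of 2 with a library left out in 6WP against WT and in AM against WT, where the likelihood ratio test called 1 and the fit to 2 groups 2.

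The values that turned sign did so mostly with a library left out, which gave these ranges. For 6WP against WT, SNHG16 ran from -0.32 without 6WP replicate 2 to 0.052 without 6WP replicate 1, and GAS5 ran from -0.0074 without 6WP replicate 2 to 0.88 without replicate 1. For 6WP against AM, SNHG15 ran from -0.010 to 0.26 and SNHG16 from -0.067 to 0.32, both lowest without 6WP replicate 2. ZBTB37 ran from -0.32 without 6WP replicate 2 through -0.27 without AM replicate 2 to 0.45, and ZNFX1 from -0.13 without AM replicate 2 to 0.30. For AM against WT, SNHG15 ran from -0.068 to 0.12, with -0.0028 without AM replicate 2 and -0.0015 without 6WP replicate 1. Under upper quartile normalization it was -0.080, under scaling by library size -0.048, and with at least 10 counts in every library -0.0071.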
